A study of Mus musculus with 6 samples.

Results

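Ndufa9, Sdhd, Cox5a and Atp5pb are nuclear genes that encode 1 subunit each of respiratory chain complexes I, II, IV and V. They were taken by gene name from an expression table of 99 genes and are 4 of those 99. No measured value entered the choice, although it was made with earlier results of these data known. The cells were B16F10, a mouse melanoma line labelled wild type, grown in RPMI medium with fetal bovine serum and antibiotics. The treated group was 3 libraries of cells given MTyr-OANPs for 48 h, and the comparison group was 3 libraries of untreated cells. MTyr-OANPs is the submitters' code and is not expanded here. No vehicle group and no batch is given in the labels, so the treatment and its handling cannot be told apart. The submitters call the 3 libraries of a group biological replicates. How the cultures were separated is not described, and p-values therefore refer to the spread among these libraries only.

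The respiratory chain sits in the inner mitochondrial membrane. Complexes I and II pass electrons from NADH and from succinate to ubiquinone, complex III passes them on to cytochrome c, and complex IV hands them to oxygen. Complexes I, III and IV pump protons, and complex V, the ATP synthase, uses the resulting gradient to make ATP. Complex II belongs to the citric acid cycle as well and pumps no protons. Subunits of complexes I, III, IV and V come from both the nuclear and the mitochondrial genome, whereas all subunits of complex II are nuclear. Melanomas differ in how far they rely on this chain or on glycolysis, and the pigment cell factor Mitf is known to raise mitochondrial genes through Ppargc1a.

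After MTyr-OANPs the 4 subunit transcripts did not move together. Cox5a fell to 39.1% of its untreated mean FPKM, Sdhd to 53.0% and Ndufa9 to 78.9%, whereas Atp5pb rose to 112% of its untreated mean. FPKM is the count of sequenced fragments divided by the length of a gene's exons and by the depth of the library. Each of the 6 ratios between a pair of subunits passed the test. So did 92.3%, 90.4% and 76.9% of the tested genes' ratios to Sdhd, Cox5a and Atp5pb, so this count is near the background of the table. The 6 ratios are built from the same 4 genes and are not independent results.

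The table places Ndufa9 (ENSMUSG00000000399) on chromosome 6 at 126821721 to 126849125, Sdhd (ENSMUSG00000000171) on chromosome 9 at 50596357 to 50603812, Cox5a (ENSMUSG00000000088) on chromosome 9 at 57521274 to 57532426 and Atp5pb (ENSMUSG00000000563) on chromosome 3 at 105942698 to 105960099. Cox5a lies on the plus strand and the others on the minus strand. These coordinates are on GRCm38. The promoters are shown because the 4 genes changed by different amounts, and because the Atp5pb window overlaps that of another measured gene, Wdr77. The Sdhd promoter window too shares 151 bases with that of another gene, Timm8b, which is not in the table. Each window runs from 250 bases before to 50 after the RefSeq start on GRCm38.p6, 5′ to 3′ on the strand of the gene: chr6:126849095-126849394 (minus strand) for Ndufa9, chr9:50603800-50604099 (minus strand) for Sdhd, chr9:57520982-57521281 (plus strand) for Cox5a and chr3:105959214-105959513 (minus strand) for Atp5pb. The Atp5pb window lies inside the span given above for that gene, which ends at 105960099. Counts of Atp5pb cover 6 annotated transcripts, and which of them begin at the RefSeq start was not tested. Capitals mark the motif matches described after the sequences.
Ndufa9: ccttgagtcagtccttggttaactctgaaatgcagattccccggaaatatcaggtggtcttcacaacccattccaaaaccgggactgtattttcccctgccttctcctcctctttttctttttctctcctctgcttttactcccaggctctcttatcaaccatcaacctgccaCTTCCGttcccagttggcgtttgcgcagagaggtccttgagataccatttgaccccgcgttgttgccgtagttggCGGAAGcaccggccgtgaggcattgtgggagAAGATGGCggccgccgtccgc
Sdhd: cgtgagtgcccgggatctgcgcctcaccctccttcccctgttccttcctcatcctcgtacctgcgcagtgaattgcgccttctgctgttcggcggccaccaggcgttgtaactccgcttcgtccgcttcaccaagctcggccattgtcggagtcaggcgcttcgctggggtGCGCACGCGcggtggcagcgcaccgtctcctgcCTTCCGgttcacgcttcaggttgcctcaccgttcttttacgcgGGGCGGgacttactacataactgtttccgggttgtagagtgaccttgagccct
Cox5a: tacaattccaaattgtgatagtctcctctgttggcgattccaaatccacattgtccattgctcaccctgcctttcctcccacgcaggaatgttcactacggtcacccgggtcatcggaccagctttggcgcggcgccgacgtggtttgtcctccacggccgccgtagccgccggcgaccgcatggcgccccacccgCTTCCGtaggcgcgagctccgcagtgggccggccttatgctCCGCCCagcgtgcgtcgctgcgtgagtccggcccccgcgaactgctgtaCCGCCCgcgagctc
Atp5pb: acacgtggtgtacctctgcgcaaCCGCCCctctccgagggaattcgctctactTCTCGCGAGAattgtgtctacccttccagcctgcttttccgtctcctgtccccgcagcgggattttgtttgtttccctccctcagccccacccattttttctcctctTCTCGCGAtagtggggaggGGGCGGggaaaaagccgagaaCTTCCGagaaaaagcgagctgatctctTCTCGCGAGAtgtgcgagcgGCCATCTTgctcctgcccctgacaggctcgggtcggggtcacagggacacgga

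Both strands of these windows were searched for letters bound by factors known from promoters of nuclear respiratory genes, and for a further stretch of letters, TCTCGCGA. The core CGGAAG of ETS factors, the family of the respiratory gene activator GABPA, was found in all 4 windows. It was found in 16.9% of all 32851 promoter windows in the RefSeq table. The core CGCNTGCGC of NRF1, another activator of nuclear respiratory genes, occurred in the Sdhd window alone among the 4, and in 6.25% of all windows. The core AANATGGC of YY1 was found in Ndufa9 and Atp5pb (6.05% of all windows), and the GC box GGGCGG in Sdhd, Cox5a and Atp5pb (35.7% of all windows). The letters TCTCGCGA, chosen after the sequences were read, were found only in Atp5pb among the 4, with matches beginning at bases -197, -90 and -23 before the start and at -195 and -21 on the other strand, which overlap the first and last of these. They were found in 0.995% of all windows, which is no test for Atp5pb, since the choice followed the reading of its sequence. These are matches of letters in a window and say nothing about binding. The GC content was 53.3% in the Ndufa9 window, 62.0% in Sdhd, 65.0% in Cox5a and 59.0% in Atp5pb, against a median of 52.7% over all windows. The shares over all windows were not matched for it. Of the 3 genes that fell, the ETS core is the match that all have in common, and Atp5pb holds it too.

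Ndufa9 is an accessory subunit of complex I, at the junction of its membrane arm and its matrix arm. Its FPKM was 76.5, 79.2 and 80.1 in treated libraries 1, 2 and 3, against 94.5, 101 and 104 in untreated libraries 1, 2 and 3. The groups did not overlap. The counts behind these values were 10842, 14139 and 14346 in treated libraries and 16537, 16341 and 17280 in untreated ones. The fall was 1.27-fold (log2 fold change -0.34, SE 0.04, edgeR adjusted p = 7.3e-08, lower in 3 of 3 libraries).

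Sdhd is 1 of the membrane anchors of complex II, which hold the catalytic subunits to the inner membrane and help to bind ubiquinone. Its FPKM was 96.1, 104 and 95.8 in treated libraries, against 181, 185 and 192 in untreated libraries. The highest treated library was 77.2 FPKM below the lowest untreated one. Counts were 7978, 10855 and 10054 in treated libraries and 18565, 17576 and 18740 in untreated ones. The fall was 1.89-fold (log2 fold change -0.92, SE 0.04, edgeR adjusted p = 6.9e-16).

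Cox5a is a matrix-side subunit of cytochrome c oxidase. Its FPKM was 26.5, 26.3 and 27.0 in treated libraries, against 64.9, 67.2 and 72.0 in untreated libraries. The coefficient of variation was 1.2% in treated libraries and 5.36% in untreated libraries. Counting error at the lowest Cox5a count is 1.63% if each count is an independent fragment, so the 1.2% is no measure of a tighter group. Counts were 3761, 4702 and 4830 in treated libraries and 11361, 10879 and 12022 in untreated ones. The fall was 2.56-fold (log2 fold change -1.35, SE 0.05, edgeR adjusted p = 3.9e-18).

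Atp5pb is subunit b of the peripheral stalk, which holds the catalytic head of the ATP synthase in place. Its FPKM was 95.1, 98.9 and 104 in treated libraries, against 86.1, 89.6 and 89.9 in untreated libraries. The groups did not overlap, but the gap between them was 5.20 FPKM. Counts were 26305, 34490 and 36216 in treated libraries and 29452, 28325 and 29297 in untreated ones. The lower total in treated library 1 goes with its lower depth, at 0.847 of the mean library. The rise was 1.12-fold (log2 fold change 0.16, SE 0.04, edgeR adjusted p = 9.4e-04, higher in 3 of 3 libraries).

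**Figure D1:**
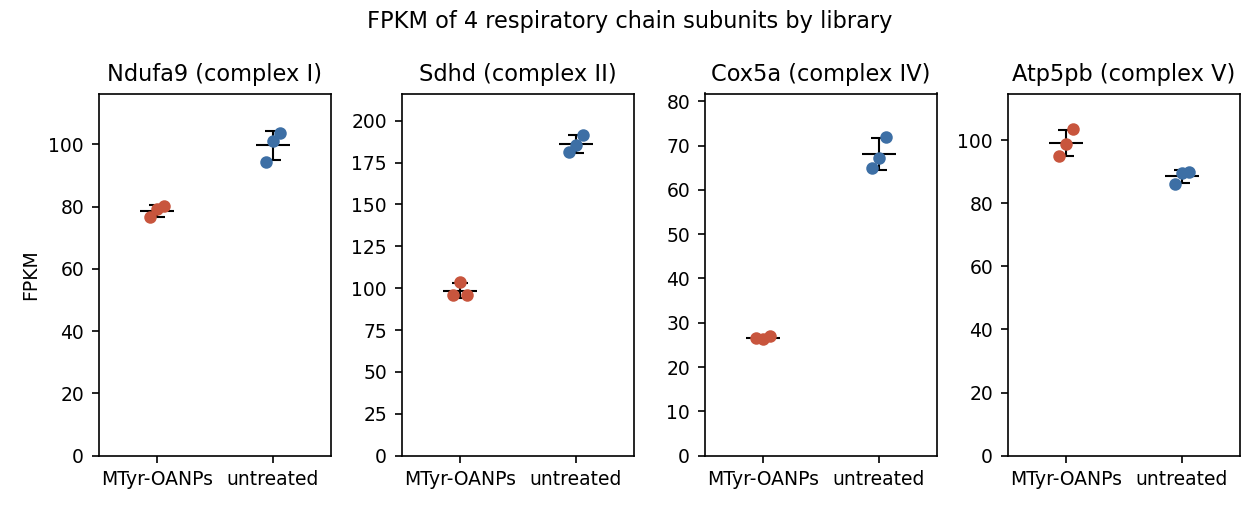
FPKM of each subunit by library, with 1 point per library, the mean as a bar and the SD as whiskers (n = 3 per group; each panel has its own axis from 0). Treated libraries lie below untreated ones for Ndufa9, Sdhd and Cox5a, and above them for Atp5pb.

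All 4 subunits passed edgeR's test at an adjusted p under 0.05, which 83.0% of the 53 tested genes did as well. A count of 4 of 4 is therefore close to the background of the table. Of the tested genes, 45.3% passed as lower, against 3 of the 4 subunits, and 37.7% passed as higher, against 1 of the 4. The groups of libraries did not overlap in FPKM for any of the 4, nor for 84.9% of tested genes. The median log2 fold change was -0.63 over the 4 and -0.03 over the 53. Ordered from the lowest log2 fold change, Cox5a was in position 7 of 53, Sdhd in position 12, Ndufa9 in position 18 and Atp5pb in position 34. An exact permutation test over libraries, two-sided, gave p = 0.1 for each subunit, the smallest value that 3 against 3 libraries can give. Scaling by TMM, which rests on the 53 genes of the table, raised the median of all log2 fold changes by 0.14. Under it Ndufa9 was at -0.21 and Atp5pb at 0.30, each past the test, and quantile normalization ended the call of Atp5pb (limma adjusted p = 0.22).

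**Figure D2:**
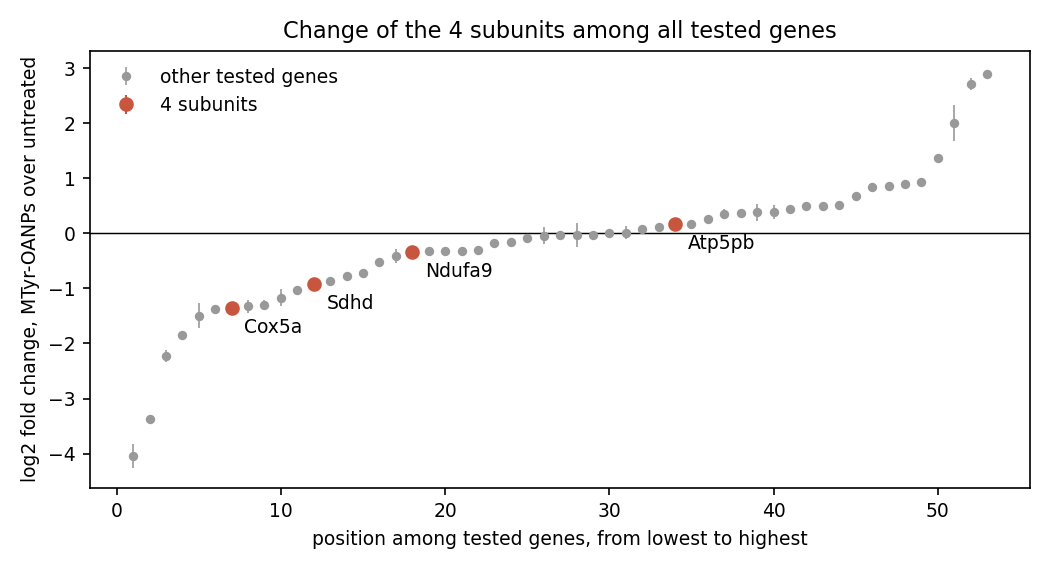
Log2 fold change (MTyr-OANPs over untreated, vertical axis) of the 53 tested genes in order of size (horizontal axis), with the 4 subunits in red and whiskers for the SE between libraries. Cox5a, Sdhd and Ndufa9 lie among the lower genes, from -1.35 to -0.34, and Atp5pb lies above 0 at 0.16.

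Ratios between subunits within 1 library do not depend on how libraries are scaled to each other. The log2 change of a ratio is the difference between the log2 changes of its pair of genes, so it adds no separate measurement. Ndufa9 over Atp5pb, the entry complex against the ATP synthase, was 0.805, 0.801 and 0.774 in treated libraries, against 1.097, 1.13 and 1.15 in untreated libraries. Sdhd over Atp5pb was 1.01, 1.05 and 0.926 in treated libraries, against 2.10, 2.07 and 2.13 in untreated ones. Cox5a over Atp5pb was 0.279, 0.266 and 0.261 in treated libraries, against 0.754, 0.750 and 0.802 in untreated ones. All these ratios were lower in every treated library than in any untreated one. The log2 changes were -0.50 (SE 0.06, limma adjusted p = 4.8e-05) for Ndufa9, -1.08 (SE 0.07, limma adjusted p = 6.7e-07) for Sdhd and -1.52 (SE 0.06, limma adjusted p = 5.3e-08) for Cox5a. Of the 52 ratios to Atp5pb over the tested genes, 76.9% passed the same test.

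The 3 subunits that fell also changed against each other. Ndufa9 over Cox5a averaged 2.95 ± 0.0637 in treated libraries and 1.47 ± 0.0334 in untreated libraries (SD, n = 3 each), a 2.02-fold rise of the ratio (log2 change 1.01, SE 0.06, limma adjusted p = 5.0e-07). Ndufa9 transcript was thus higher relative to Cox5a transcript in treated cells. Sdhd over Cox5a averaged 3.71 ± 0.207 in treated libraries and 2.74 ± 0.0671 in untreated libraries (SD, n = 3 each), a 1.35-fold rise (log2 change 0.44, SE 0.06, limma adjusted p = 2.2e-04). Ratios to Cox5a passed for 90.4% of the 52 genes. Ndufa9 over Sdhd averaged 0.799 ± 0.0365 in treated libraries and 0.536 ± 0.0121 in untreated libraries (SD, n = 3 each), a 1.49-fold rise (log2 change 0.58, SE 0.06, limma adjusted p = 2.3e-05). Ratios to Sdhd passed for 92.3% of the 52 genes. The change of each ratio was larger than its range within either group, which reached 0.181 on the log2 scale for Sdhd over Atp5pb in treated libraries. Each ratio had an exact permutation p = 0.1, two-sided, the smallest value possible.

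**Figure D3:**
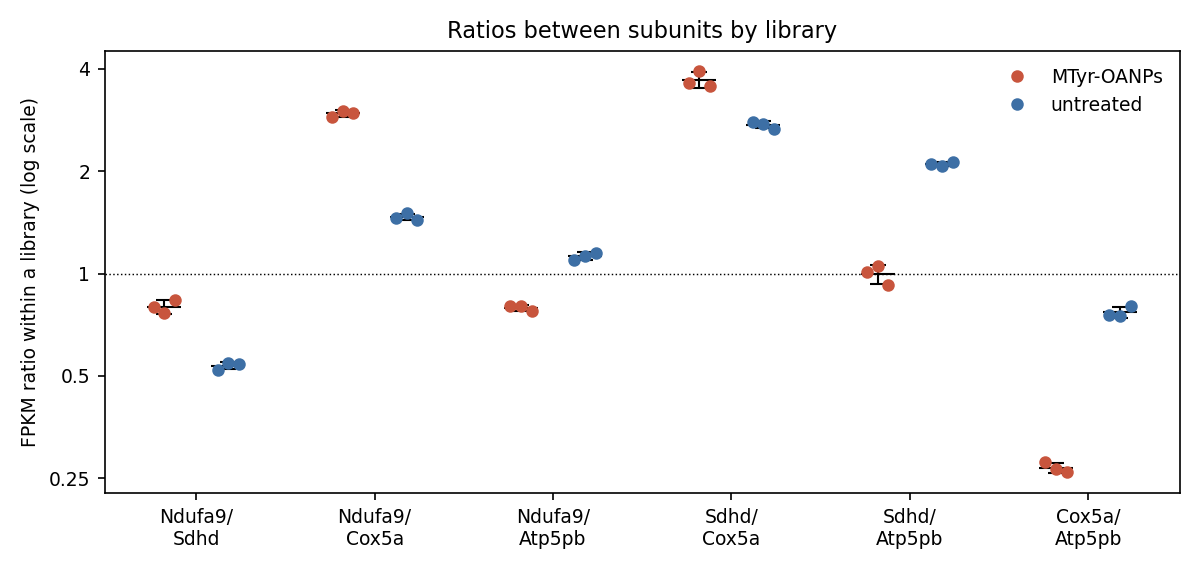
FPKM ratio of each pair of subunits within a library, on a log axis, with 1 point per library, the mean as a bar and the SD as whiskers (n = 3 per group). The groups are apart in all 6 ratios, and the ratio of Cox5a to Atp5pb moved most, to a mean of 0.269 in treated libraries against 0.769 in untreated ones.

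The level of 1 subunit against another depends on the length it is divided by. The lengths implied by counts and FPKM were 2101 bases for Ndufa9, 1231 for Sdhd, 2101 for Cox5a and 4105 for Atp5pb. These equal the union of all annotated exons in GENCODE M21, models with retained introns included. The principal protein-coding transcript is shorter for 3 of them, at 1445 bases for Ndufa9, 645 for Cox5a and 1604 for Atp5pb, and 1231 for Sdhd, which has a single transcript. Rescaling to the principal transcript changes no fold change between groups, but it multiplies the level of Cox5a by 3.26, that of Atp5pb by 2.56 and that of Ndufa9 by 1.45. It assumes that all counts came from that transcript, which was not tested.

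On the deposited FPKM scale Sdhd was the highest of the 4 in all untreated libraries, followed by Ndufa9, Atp5pb and Cox5a. In treated libraries Sdhd and Atp5pb did not differ beyond their spread, at 98.6 ± 4.52 and 99.2 ± 4.23 FPKM (SD, n = 3 each), with Ndufa9 at 78.6 ± 1.85 and Cox5a at 26.6 ± 0.320 below them. On the principal transcript scale Atp5pb was the highest in all treated libraries, at 254 ± 10.8 FPKM, followed by Ndufa9 at 114 ± 2.69, Sdhd at 98.6 ± 4.52 and Cox5a at 86.7 ± 1.04 (SD, n = 3 each). Atp5pb and Cox5a did not differ beyond their spread in untreated libraries on that scale, at 227 ± 5.35 and 222 ± 11.9 FPKM, with Sdhd at 186 ± 5.37 and Ndufa9 at 145 ± 6.82 (SD, n = 3 each). Cox5a was thus the lowest of the 4 in treated libraries on both scales, whereas in untreated libraries it was the lowest on the deposited scale and near the top on the other. The summed FPKM of the 4 on the deposited scale was 303 ± 7.58 in treated libraries and 442 ± 15.4 in untreated ones (SD, n = 3 each). A share can therefore rise without a rise in level. The share of Atp5pb in this sum was 32.7% ± 0.924 in treated libraries and 20.02% ± 0.316 in untreated ones (SD, n = 3 each). On the principal transcript scale it was 45.9% ± 0.897 and 29.1% ± 0.507. The shares of Ndufa9 and Sdhd on the deposited scale were 25.95% and 32.54% in treated libraries, against 22.53% and 42.07% in untreated ones. The share of Cox5a was 8.79% ± 0.238 in treated libraries and 15.4% ± 0.328 in untreated ones on the deposited scale, and 15.7% ± 0.376 and 28.4% ± 0.561 on the other (SD, n = 3 each).

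**Figure D4:**
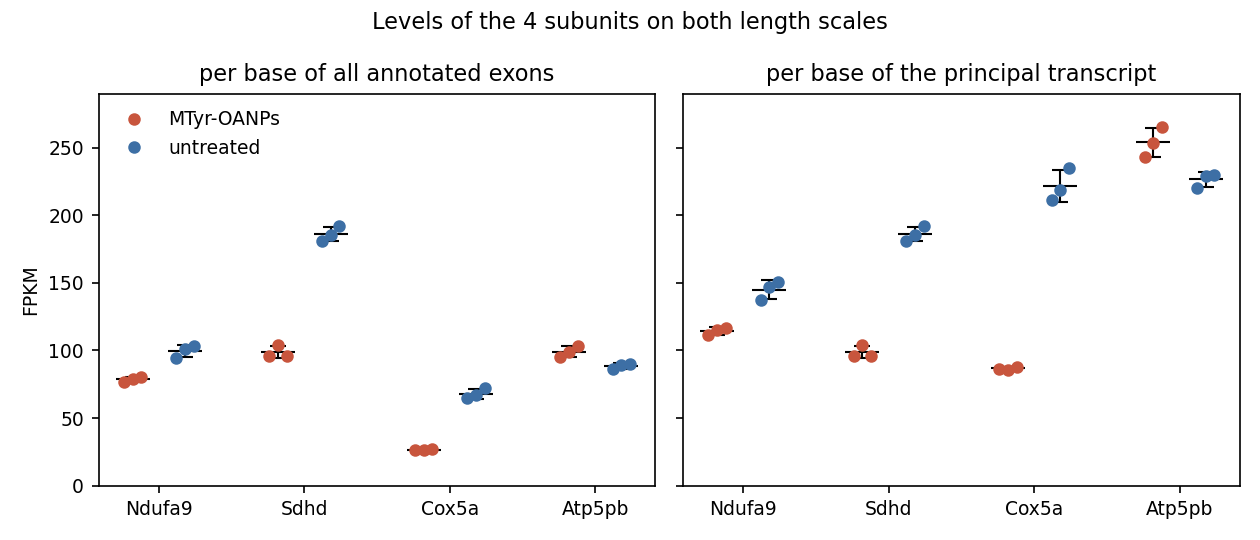
FPKM of the 4 subunits by library, divided by the length of all annotated exons as deposited (left) or rescaled to the principal transcript (right), with the mean as a bar and the SD as whiskers (n = 3 per group). The order of the subunits differs between the panels, while the fold between groups of each subunit is the same in both.

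Exons of other genes overlap those of 3 of the 4 on the opposite strand. Whether the authors counted by strand is not stated in what was used here, so reads of such pairs cannot be told apart. Wdr77, a partner of the methyltransferase Prmt5, starts beside Atp5pb on the opposite strand. Their exons share 337 bases (8.21% of the Atp5pb exons) and their promoter windows 266 bases, which hold the TCTCGCGA matches printed above. Wdr77 had 15.98, 14.4 and 13.7 FPKM in treated libraries, against 7.88, 8.29 and 7.56 FPKM in untreated libraries. It rose 1.86-fold (log2 fold change 0.89, SE 0.07), against 1.12-fold for Atp5pb. Mean counts of Wdr77 were 5602.3 in treated libraries and 3061.0 in untreated ones. Whether reads of Wdr77 add to the counts of Atp5pb was not tested.

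Atp5pb exons also share 203 bases with the transcript Gm42890, and 2.58% of the 100-base stretches of its transcripts occur in the same orientation in the pseudogene Gm12231. Exons of Cox5a share 269 bases (12.8%) with the noncoding RNA Gm26631, and those of Ndufa9 share 67 bases (3.19%) with the antisense gene 1700018A23Rik. No exon of Sdhd overlapped another gene. No 100-base stretch of Ndufa9, Sdhd or Cox5a transcripts was found in the same orientation in transcripts of another gene. The opposite orientation, in which the exon overlaps given above lie, was not searched.

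The nearest genes of the table to Sdhd are Pih1d2 and Dlat, 13509 and 30821 bases away. Dlat, the acetyltransferase subunit of pyruvate dehydrogenase, had 22.0, 24.8 and 22.2 FPKM in treated libraries, against 25.9, 26.5 and 25.5 in untreated libraries (log2 fold change -0.17, SE 0.06, edgeR adjusted p = 2.4e-03). Its fall was 1.13-fold, against 1.89-fold for Sdhd. Pih1d2 was below the FPKM minimum of 1 used for testing, with 0.728, 0.599 and 0.541 FPKM in treated libraries and 0.614, 0.595 and 0.411 in untreated ones, and its groups overlapped. Adora3, near Atp5pb, had a count of 2 in treated library 3 and 0 in the other libraries.

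The lists of nuclear subunits of complexes I to V, cytochrome c included, held 84 genes, of which the 4 described here are in the table. None of the 9 subunits of complex III, the 13 mitochondrially encoded subunits and the 20 glycolysis genes listed is among the 99, so their levels are not known here. The 50 other mitochondrial genes listed had 4 in the table, of which 3 were tested, 2 rose and 1 fell. Of all tested genes 83.0% were called, so this count is near the background. Dbt, which acts in the breakdown of branched-chain amino acids, had 18.3, 17.9 and 17.1 FPKM in treated libraries, against 9.71, 9.44 and 10.7 in untreated libraries, and rose 1.79-fold. Tbrg4, a factor for mitochondrial RNA, had 17.0, 16.3 and 16.5 FPKM in treated libraries, against 11.5, 13.5 and 14.1 in untreated libraries, and rose 1.27-fold (edgeR adjusted p = 5.2e-05). Dlat was the gene that fell. Ckmt1, mitochondrial creatine kinase, had counts of 27, 12 and 8 in treated libraries and 6, 16 and 26 in untreated libraries.

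Of 15 regulators of mitochondrial genes listed, Tfe3 and Mnt were in the table, and both rose, as did 37.7% of all tested genes. A count of 2 says little about regulators. Tfe3, a relative of Mitf that activates lysosomal and metabolic genes, rose 1.13-fold (log2 fold change 0.18, SE 0.06, edgeR adjusted p = 8.1e-03). Mnt, a repressor that competes with Myc for Max, rose 1.43-fold (log2 fold change 0.52, SE 0.06, edgeR adjusted p = 4.1e-07).

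Among the other 52 tested genes, the profile over the 6 libraries nearest to Ndufa9 was that of Dazap2, with a root mean square distance of 0.026 between log2 FPKM profiles centred on their own means, followed by Mkrn2 at 0.064. Cdc45 was at 0.072 from Sdhd. Cav2 (0.064) and Hddc2 (0.088) were nearest to Cox5a, and Tfe3 (0.052) and Grasp (0.054) to Atp5pb. No subunit was among the nearest pair of another. The closest subunits were Sdhd and Cox5a at 0.224, with Cox5a in position 8 of 52 for Sdhd and Sdhd in position 6 for Cox5a. These distances are descriptions and share the same 6 libraries.

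Implied depths ran from 67413612 to 85232815 fragments in treated libraries and from 77019937 to 83316641 fragments in untreated libraries. The lowest count of any of the 4 subunits was 3761, for which counting error is 1.63% if each count is an independent fragment. None of the 9 melanocytic markers listed is among the 99 genes, so the cell identity was not checked here. Of the leukocyte markers listed, Itgb2 had 1.54, 1.56 and 1.75 FPKM in treated libraries, against 0.249, 0.521 and 0.442 FPKM in untreated libraries, and Lck had counts of 258, 273 and 369 in treated libraries and 60, 55 and 92 in untreated ones. Fap, the fibroblast marker in the table, had counts of 0 in all treated libraries and 0, 0 and 15 in untreated libraries, and Cdh1, the epithelial marker, had 8, 8 and 16 in treated libraries and 0, 12 and 4 in untreated ones. The part of these markers in the changes of the subunits was not tested. A change in RNA per cell and a change in the mix of cells cannot be told apart in bulk libraries.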

How the data were processed

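Poly(A) RNA of 3 treated and 3 untreated libraries was sequenced as 150 bp pairs, per the labels' protocols. The deposited table holds raw counts and FPKM per gene and library, which the authors computed. CASAVA 1.4 and mm9 are named, per the submitters' processing notes. The aligner and the counter, with its strand setting, were not given in the sources used here. Both ends of 86 of the 99 genes, and 1 end of the other 13, match GENCODE M21 on GRCm38, so coordinates are given on GRCm38. Other genes were not analysed here.

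The relative depth of a library was taken from its counts over FPKM, in 59 genes that had 50 counts or more. No gene deviated by more than 1.62%. Exon lengths of 7 single-transcript genes set the absolute level. These depths were the library sizes of edgeR's quasi-likelihood test (4.0.16, R 4.3.3), two-sided, Benjamini-Hochberg adjusted over 53 genes whose mean FPKM was 1 or more. Of 41 values from 1 to 20, 30 were multiples of 4, so a count may not be 1 read pair. The common dispersion was 0.00435, and the spread of each gene was drawn toward that of the others (prior degrees of freedom 19.7). Ratios were tested with limma (3.58.1) on log2 FPKM ratios of all tested genes to 1 subunit, without a pseudocount. SE of fold changes came from log2 FPKM within groups, and SE of ratios from limma. Both steps were also run on simulated counts, in which fewer genes changed than were called here and all genes shared the common dispersion. That setting differs from the data, so nothing is concluded from it about these calls.

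Named genes were the 4 subunits, all table genes on the lists, neighbours within 50 kb and the nearest pair of profiles per subunit, of which 1 gene is not reported here. Members and lists were chosen with earlier results of these data known. Promoters are from RefSeq (GRCm38.p6), and all 4 genes matched by symbol. Alternatives covered scaling, FPKM minimum, DESeq2 (1.42.0), limma, pseudocounts, a replicate block, and each library left out in turn.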

Additional observations from a re-analysis of the deposited data

How the results depend on the processing

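Of 76 values of the 4 subunits under 19 alternatives each, 75 kept their direction and the call. The exception was Atp5pb under quantile normalization in limma (log2 fold change 0.15, limma adjusted p = 0.22), an alternative chosen after seeing the data, as were the rescaling to the principal transcript and the choice of default over robust priors in edgeR, since robust priors were infinite (44 calls with either). The cause was not tested. The FPKM minimum, the replicate block and the robust priors left the log2 fold changes of the subunits nearly as they were, so mainly the adjusted p could move. When 1 library was left out, the log2 fold change of Atp5pb ran from 0.13 to 0.19, with edgeR adjusted p up to 0.018, and those of Ndufa9, Sdhd and Cox5a ran from -0.38 to -0.31, from -0.95 to -0.89 and from -1.39 to -1.31. All 60 values of the 6 ratios under 10 alternatives each kept direction and call, with limma adjusted p up to 1.4e-03. Ratios of counts differ from ratios of FPKM by a fixed length only, so that alternative could hardly differ. The FPKM minimum and the replicate block leave the log2 change of a ratio as it was, so only its adjusted p could move. These alternatives are therefore no check of direction. The number of genes called was 44, and 35 to 51 over all alternatives, with fewer or more genes tested at the ends. The replicate block gave 45 calls and changed no call of a subunit. The numbers were not taken to pair the libraries. For number 3 the deviations of the treated and the untreated library from their group means correlated at -0.0072 (0.309 and 0.397 for the others). Deviations from a mean of 3 libraries depend on each other, and libraries of different number were not compared. These values therefore cannot decide whether the libraries are paired. The lowest count of the subunits was 3761, and a count may not be 1 read pair. With counts and depths divided by 4, all 4 subunits kept their direction and call in edgeR.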
